A study of Mus musculus with 6 samples.

Results

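The genes described here are targets and regulators of the transcription factor p53, measured in mouse hepatocytes sorted by DNA content. The list held 31 genes. A gene was measured through a probe set that the platform annotation gives to that symbol alone, and the brightest on average was taken where several existed. This gave 27 of the 31 genes, out of 12393 genes on the array. Trp53, which encodes p53 itself, and the targets Gdf15, Bax and Eda2r had no such probe set in the tables used here and were not analysed. Pmaip1 and Tnfrsf10b lay among the 25% of genes with the lowest mean, under a log2 intensity of 5.06, and were kept as values only, which left 25 members among 9295 genes tested. These 25 members were not all members of the list.

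The fractions were tetraploid and diploid hepatocytes, each on 3 arrays, from livers of wild-type C57BL/6 mice that were 3 weeks old. The labels name no engineered allele and no drug for either fraction. The cells were freshly isolated, and flow sorting on the DNA dye Hoechst 33342 directly preceded RNA extraction. Because the sort was by DNA content, diploid cells in G2 or mitosis may lie in the tetraploid fraction. The labels call the replicates biological without naming separate animals, so the p-values reflect only how these samples vary, and some of that variation may be technical.

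p53 is held at a low level by the ubiquitin ligase Mdm2 and its partner Mdm4. When DNA is damaged or a cell meets other stress, p53 is released from this control and switches on genes that stop the cell cycle, repair DNA, trigger cell death or, in the case of Mdm2 itself, turn the response off again. Hepatocytes become tetraploid during postnatal growth when a cell copies its DNA and then fails to divide its cytoplasm, and in cultured cells p53 is known to restrain the proliferation of cells that have become tetraploid.

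Values are the authors' intensities, converted to log2, and differences are the tetraploid mean minus the diploid mean on that scale. The arrays had been equalised by the authors, with medians between 86.4 and 89.2, so a difference in total RNA per cell is not visible, and fewer cells that express a gene cannot be told apart from less RNA per cell. The labelled cell type was matched by its markers: all 9 measured hepatocyte markers were well above the cutoff for dim genes. Their mean deviation from the 6-array mean ranged from -0.12 to 0.07 in tetraploid samples and from -0.09 to 0.07 in diploid samples. The marker Tat varied more, at 12.29, 13.52 and 13.41 on tetraploid arrays 1 to 3, against 12.58, 13.46 and 13.55 on diploid arrays 1 to 3. Cyp2e1 was higher in tetraploid cells without overlap, by 0.11, as were 5.22% of all genes. Both markers were named after their values were seen. Of 27 measured markers of endothelial cells, leukocytes, cholangiocytes, stellate cells and erythroid cells, 10 were dim, including Pecam1, Ptprc, Epcam and Col1a1. Others were well above the cutoff for dim genes. The endothelial marker Clec4g was at 8.32 in tetraploid and 7.98 in diploid cells, and Stab2 at 7.07 and 7.31. The leukocyte marker Csf1r was at 6.75 in tetraploid and 6.90 in diploid cells. Of the 17 tested, 7 were higher and 10 lower in tetraploid cells on average, and the cell types differed in direction. Endothelial markers were higher for 5 of 6 (median difference 0.09), leukocyte markers for 0 of 6 (median -0.10) and stellate markers for 0 of 2. Eng, counted among the 5, differed by only 5.3e-06, and Stab2 was the lower endothelial marker, at -0.24. Among the 17 tested, the arrays of the fractions did not overlap for Cd3e and Pdgfrb, which differed by -0.21 and -0.24. Over all genes tested, 12.3% did not overlap. The dim markers Epcam and Cd68 did not overlap either, and differed by -0.32 and 0.25. The part of these markers in the differences of the p53 targets was not tested. By limma 0 of the 17 markers passed an adjusted p of 0.05, and 1 in each direction had an unadjusted p under 0.05. Over all genes, 2.32% were higher and 3.85% lower at that unadjusted p.

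The p53 targets did not move together between the fractions. Of 25 members tested, 14 had a higher and 11 a lower mean in tetraploid hepatocytes, where 47.8% of all genes had a higher one. Their median log2 difference was 0.04, against -0.01 over all genes tested. By limma with Benjamini-Hochberg adjustment over all genes, 0 members and 0% of all genes passed an adjusted p of 0.05. At an unadjusted p under 0.05, 2 members were higher, the RNA-binding protein gene Zmat3 and the cyclin gene Ccng1, where 2.32% of all genes were higher. Another 2 were lower, the DNA damage recognition gene Ddb2 and the spindle protein gene Psrc1, where 3.85% of all genes were lower. The 3 tetraploid arrays lay above all diploid arrays for 3 members, Zmat3, Ccng1 and Perp, against 5.22% of all genes. They lay below them for 3 members, Ddb2, Psrc1 and Phlda3, against 7.08% of all genes. For Perp, Psrc1 and Phlda3 the separation was by a very small margin. The difference was under 0.25 in size for 21 of the 25 members (84%), against 93.7% of all genes.

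**Figure D1:**
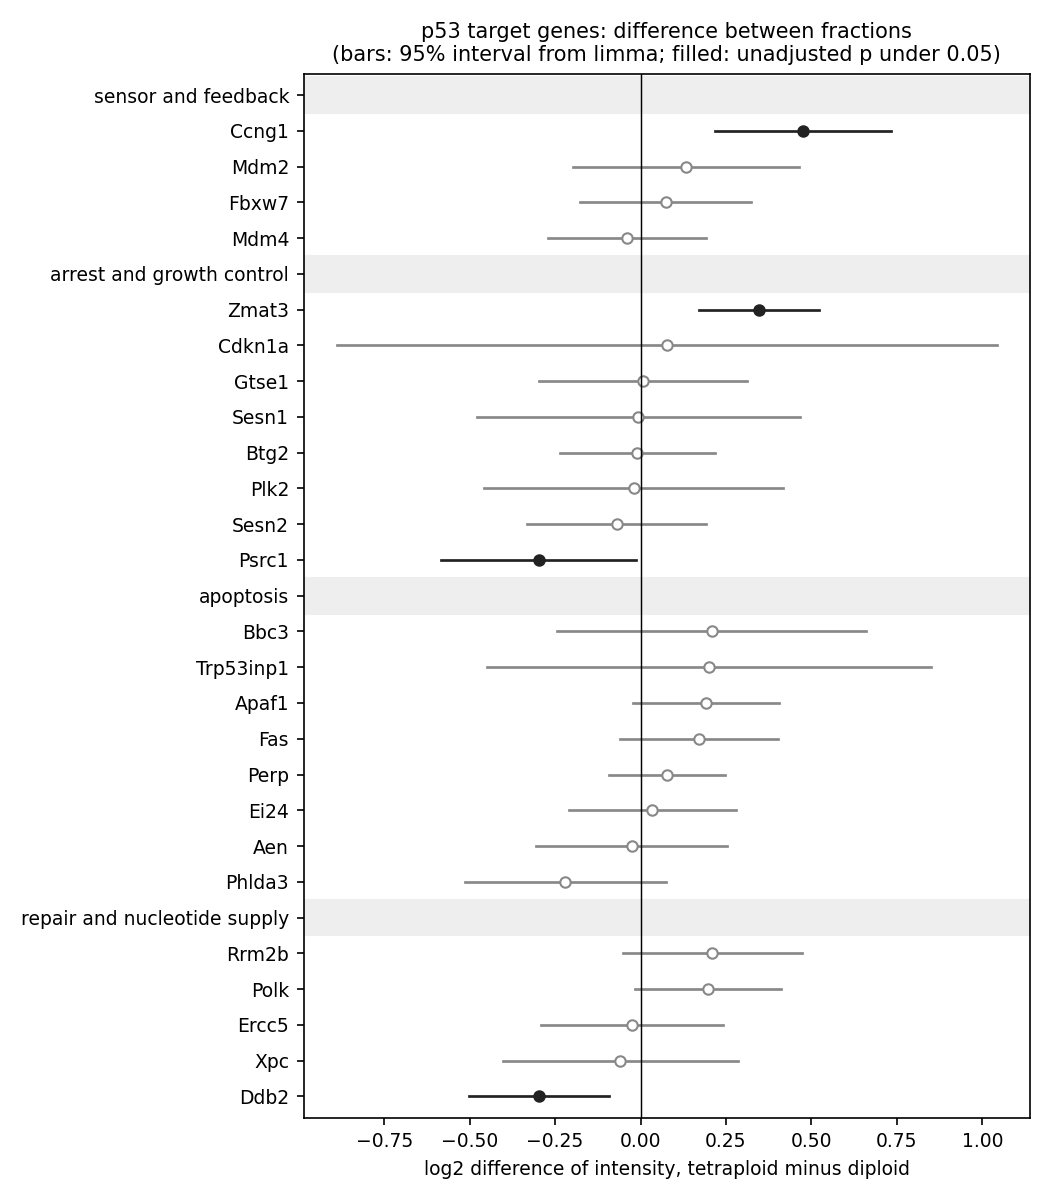
The log2 difference of each tested member, tetraploid minus diploid, is plotted with its 95% interval from limma, grouped by role and sorted within each role. Filled points mark the 4 members with an unadjusted p under 0.05: Ccng1 and Zmat3 lie to the right of 0, and Psrc1 and Ddb2 to the left, while Cdkn1a has the widest interval, from -0.89 to 1.04.

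Among the genes that sense and feed back on p53, Ccng1 stood apart from the others. Ccng1 encodes cyclin G1, a p53 target that recruits a phosphatase to Mdm2. Its log2 intensity was 8.98, 9.06 and 8.79 on tetraploid arrays 1 to 3, against 8.29, 8.50 and 8.61 on diploid arrays 1 to 3. All 3 tetraploid values lay above all 3 diploid values. The means were 8.94 ± 0.14 in tetraploid and 8.47 ± 0.16 in diploid cells (SD, n = 3 each), a difference of 0.47 ± 0.11 (SE) or 1.39-fold, with a limma adjusted p = 0.387. Leaving out each array in turn kept the difference between 0.39 and 0.55.

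The other probe sets for Ccng1 gave the same picture. One measured 8.49, 8.51 and 8.43 in tetraploid against 7.99, 8.22 and 8.28 in diploid cells, a difference of 0.31 ± 0.09 (SE). Another measured 7.90, 7.94 and 7.87 in tetraploid against 7.19, 7.36 and 7.54 in diploid cells, a difference of 0.54 ± 0.10 (SE). On every one of the 3 probe sets the fractions were fully separated, and diploid replicate 1 was the lowest array.

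The promoter of Ccng1 is shown because it is the member with 1 of the 3 smallest p-values for which the RefSeq promoter table held a window. The window runs from 250 bases before to 50 bases after the annotated start, on the minus strand of GRCm38.p6 at chr11:40755237-40755536. Capitals mark the p53 decamer, the unit that is repeated in a p53 response element, found by its standard degenerate consensus, which reads the same on both strands.
Ccng1 promoter: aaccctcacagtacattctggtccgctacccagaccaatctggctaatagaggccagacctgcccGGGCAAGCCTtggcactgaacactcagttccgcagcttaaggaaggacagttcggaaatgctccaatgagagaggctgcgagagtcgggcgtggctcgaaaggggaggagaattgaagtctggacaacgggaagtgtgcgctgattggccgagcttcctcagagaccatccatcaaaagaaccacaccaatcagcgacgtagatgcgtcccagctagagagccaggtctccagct
The decamer began 185 bases before the start. The promoter table held windows for 23 of the 31 listed genes, and Zmat3 and Ddb2 were not among them. At least 1 decamer was found in the windows of 10 of these 23 genes (43.5%), against 9.55% of all 27025 genes with a window. Counted by window, 31.4% of the members' 35 windows held a decamer, against 8.36% of all windows. The 10 genes were Aen, Bax, Ccng1, Cdkn1a, Ei24, Gtse1, Mdm2, Polk, Sesn1 and Trp53. The list was made of p53 targets and regulators, so its higher share is no independent result. The shorter motif CATG, which also reads the same on both strands and is the centre of many p53 decamers, was in 31.4% of the members' 35 windows and in 61.1% of all windows. These matches describe the letters in the windows and are no evidence of binding.

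Mdm2, the ligase that degrades p53, was at 7.85, 8.05 and 8.004 on the tetraploid arrays, against 7.52, 7.94 and 8.05 on the diploid arrays. The fractions overlapped, since diploid replicates 2 and 3 lay within the tetraploid range, while diploid replicate 1 lay below it. The difference was 0.13 ± 0.14 (SE), with a 95% interval from -0.20 to 0.46. It was -0.03 without diploid replicate 1 and 0.24 without diploid replicate 3. A dimmer probe set for Mdm2 did separate the fractions, at 7.03, 7.05 and 6.86 in tetraploid against 6.48, 6.86 and 6.59 in diploid cells, a difference of 0.34 ± 0.11 (SE). Tetraploid replicate 3 and diploid replicate 2 were nearly equal there.

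Mdm4, the partner that blocks the activation domain of p53, was at 7.02, 7.34 and 7.33 in tetraploid cells, against 7.26, 7.28 and 7.27 in diploid cells. The diploid arrays were nearly identical and tetraploid replicate 1 lay below them. The difference was -0.04 ± 0.10 (SE), and the second probe set differed in the other direction, by 0.16 ± 0.12 (SE). Fbxw7, the substrate receptor of a ubiquitin ligase for cyclin E, differed by 0.07 ± 0.11 (SE), with overlapping fractions.

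Of the 8 tested genes of cell cycle arrest and growth control, 3 had a higher and 5 a lower mean in tetraploid cells, with a median difference of -0.01. Zmat3 had the smallest p of all members. It encodes a zinc finger protein that binds RNA and takes part in the tumour suppression exerted by p53 in mice. Zmat3 was at 6.00, 6.11 and 6.14 on the tetraploid arrays and at 5.74, 5.80 and 5.67 on the diploid arrays. The fractions were separated by more than either fraction's own range. Means were 6.08 ± 0.07 in tetraploid and 5.74 ± 0.06 in diploid cells (SD, n = 3 each), a difference of 0.35 ± 0.08 (SE) or 1.27-fold. The limma adjusted p was 0.356, and the difference stayed between 0.31 and 0.39 when any 1 array was left out. Its single probe set was brighter than 17.3% of the genes tested.

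Psrc1, a microtubule-binding protein of the mitotic spindle, was at 5.67, 5.51 and 5.69 in tetraploid cells, against 6.15, 5.92 and 5.69 in diploid cells. The separation was narrow, with tetraploid replicate 3 and diploid replicate 3 nearly equal, and diploid replicate 1 was the highest array. The difference of -0.30 ± 0.12 (SE) had a limma adjusted p = 0.794. Its unadjusted p was no longer under 0.05 in 5 of the 6 fits with 1 array left out, and only the fit without diploid replicate 3 kept it there. The difference was -0.18 without diploid replicate 1 and -0.41 without diploid replicate 3, and the separation was lost under quantile normalization. The probe set used is of a kind that can match several transcripts, and the other 2 probe sets for Psrc1 differed by -0.03 and -0.04 with overlapping fractions.

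**Figure D2:**
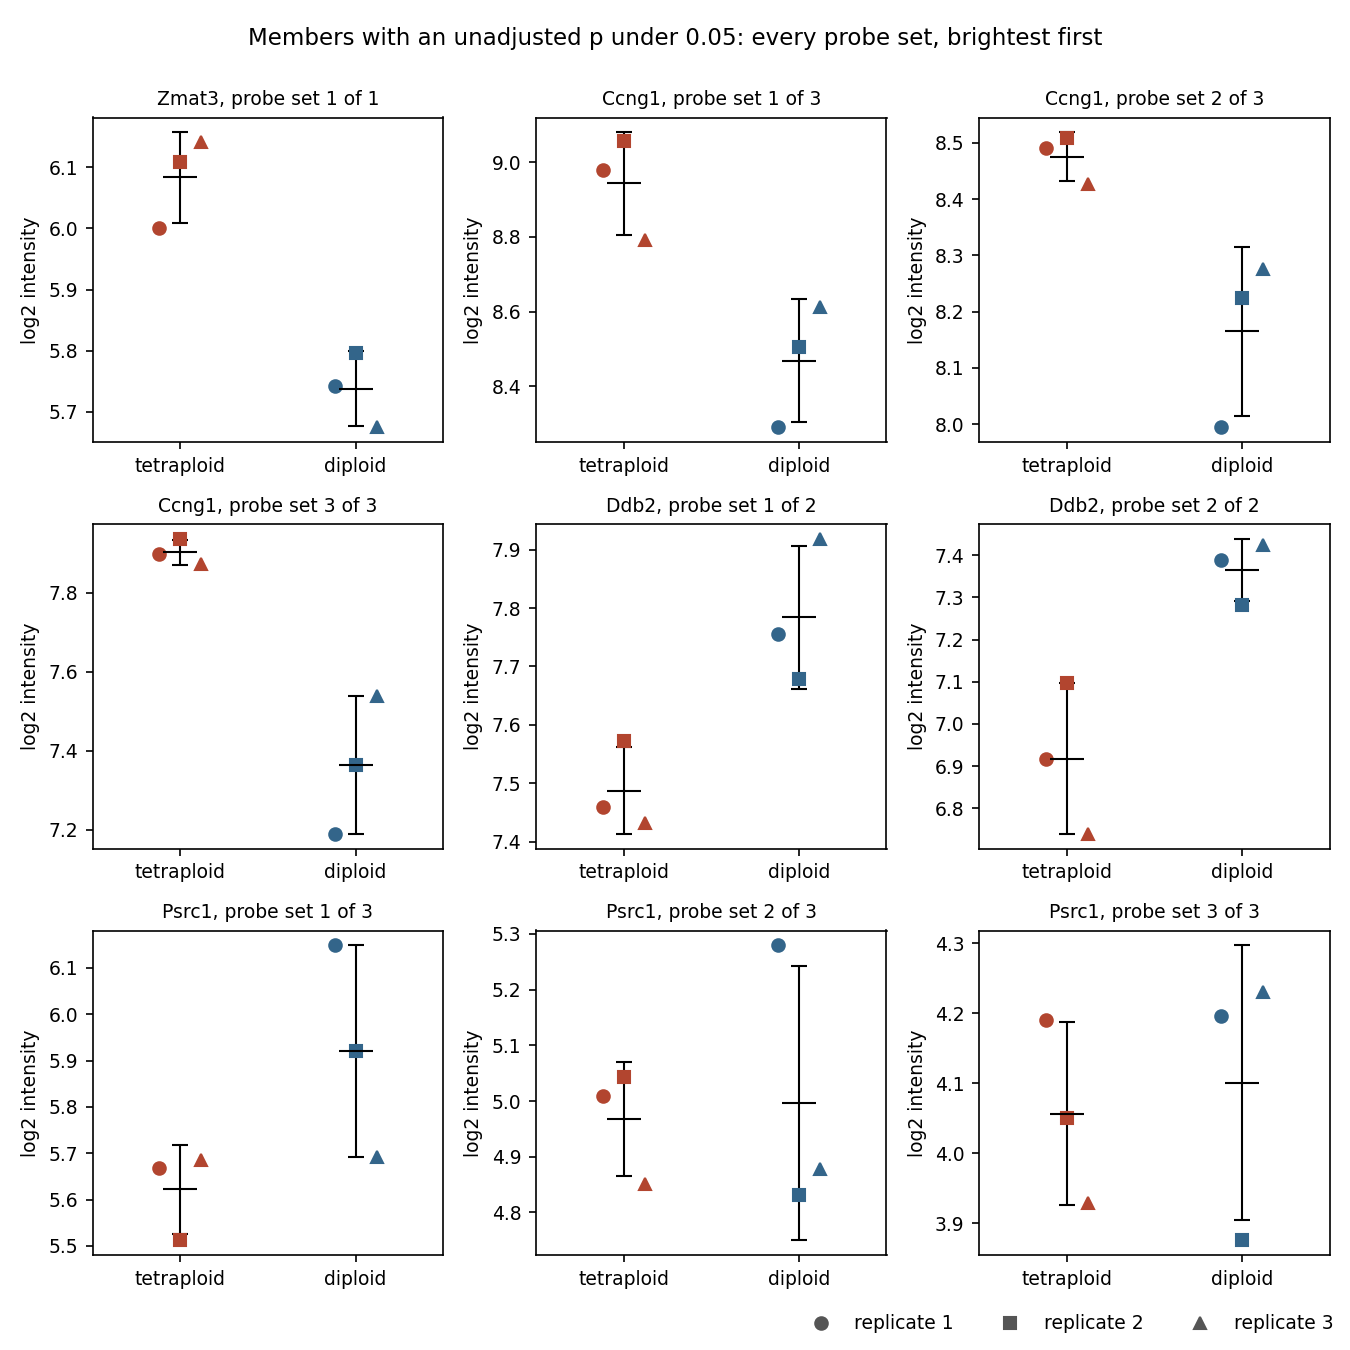
Each panel shows the log2 intensity of 1 probe set of Zmat3, Ccng1, Ddb2 or Psrc1, with the 3 tetraploid arrays on the left and the 3 diploid arrays on the right. The horizontal line is the mean, the bars are 1 SD, and the marker shape gives the replicate number. The probe sets of Zmat3, Ccng1 and Ddb2 separate the fractions in every panel, whereas only the brightest of the 3 probe sets for Psrc1 does. The y axes differ between panels and do not start at 0.

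Cdkn1a, which encodes p21, the inhibitor of cyclin-dependent kinases through which p53 stops the cell cycle, varied more within a fraction than between fractions. It was at 6.61, 7.78 and 6.70 on tetraploid arrays 1 to 3, against 6.43, 6.66 and 7.77 on diploid arrays 1 to 3. One array of each fraction was high, tetraploid replicate 2 and diploid replicate 3, and these 2 were almost equal. The highest array exceeded the lowest by 2.25-fold among the tetraploid and by 2.53-fold among the diploid arrays. The means were 7.03 ± 0.65 and 6.95 ± 0.71 in tetraploid and diploid cells (SD, n = 3 each), and the 95% interval of the difference ran from -0.89 to 1.04. The difference was -0.30 without tetraploid replicate 2 and 0.48 without diploid replicate 3. The second probe set repeated the pattern, at 5.93, 7.62 and 6.55 in tetraploid against 6.20, 6.16 and 7.41 in diploid cells.

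RefSeq gives Cdkn1a 2 windows, and the more upstream one is shown because it holds decamers and Cdkn1a is the member with the widest spread, a choice made after the values were seen. It lies on the plus strand of GRCm38.p6 at chr17:29090729-29091028, and capitals again mark each match to the p53 decamer.
Cdkn1a upstream window: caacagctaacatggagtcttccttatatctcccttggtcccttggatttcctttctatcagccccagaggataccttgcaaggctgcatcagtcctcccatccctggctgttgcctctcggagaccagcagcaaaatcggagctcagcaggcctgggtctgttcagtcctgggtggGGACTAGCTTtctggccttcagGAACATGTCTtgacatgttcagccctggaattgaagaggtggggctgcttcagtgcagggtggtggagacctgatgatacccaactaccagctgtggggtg
The matches began 73 and 51 bases before the annotated start of that window. In the window of the downstream start of Cdkn1a, 0 decamers were found.

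Sesn1, a sestrin that links p53 to the growth kinase mTORC1, was at 8.67, 9.15 and 8.78 on the tetraploid arrays, against 8.58, 8.74 and 9.30 on the diploid arrays. Its high arrays were again tetraploid replicate 2 and diploid replicate 3, and the difference was -0.01 ± 0.20 (SE). The other probe sets differed by 0.30 ± 0.22 and 0.14 ± 0.25 (SE). Sesn2, the related sestrin, differed by -0.07 ± 0.11 (SE).

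Plk2, a polo-like kinase induced by stress and growth factors, had its low values on those same arrays. It was at 6.39, 6.10 and 6.59 in tetraploid cells and at 6.71, 6.40 and 6.04 in diploid cells, a difference of -0.02 ± 0.19 (SE). Btg2, an antiproliferative gene that is also induced in the first hours of a stress response, was at 11.17, 11.10 and 10.98 in tetraploid cells, against 11.18, 10.92 and 11.16 in diploid cells. The fractions overlapped, with a difference of -0.01 ± 0.10 (SE). Gtse1, a G2 and mitosis protein that moves p53 out of the nucleus, differed by 0.01 ± 0.13 (SE).

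Of the 8 tested apoptosis genes, 6 had a higher and 2 a lower mean in tetraploid cells, with a median difference of 0.12. An unadjusted limma p under 0.05 was reached by 0 of the 8, against 6.18% of all genes in both directions together. Bbc3, the pro-death protein PUMA of the Bcl-2 family, was at 6.79, 6.36 and 6.95 in tetraploid cells, against 6.77, 6.54 and 6.16 in diploid cells. Low values fell on tetraploid replicate 2 and diploid replicate 3, the arrays that were high for Cdkn1a. The difference was 0.21 ± 0.19 (SE). It was 0.04 without diploid replicate 3 and 0.38 without tetraploid replicate 2.

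Trp53inp1, a stress-induced nuclear protein that promotes the activity of p53, was at 10.96, 11.67 and 11.70 in tetraploid cells, against 10.69, 11.49 and 11.55 in diploid cells. Replicate 1 of each fraction was low, and the difference was 0.20 ± 0.28 (SE). It was -0.08 without diploid replicate 1 and 0.44 without tetraploid replicate 1. A much dimmer second probe set separated the fractions, at 6.46, 6.60 and 6.80 in tetraploid against 5.31, 6.20 and 6.06 in diploid cells, a difference of 0.76 ± 0.22 (SE) with a limma adjusted p = 0.583 over all probe sets.

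Perp, a membrane protein of cell junctions and p53-dependent apoptosis, was at 11.78, 11.65 and 11.65 in tetraploid cells, against 11.64, 11.63 and 11.57 in diploid cells. The values were separated by a very small margin, which was lost when the arrays were centred on their medians, and the difference was 0.08 ± 0.07 (SE). Phlda3, which restrains the survival kinase Akt, was at 6.11, 6.03 and 6.18 in tetraploid cells, against 6.61, 6.19 and 6.18 in diploid cells. Diploid replicate 1 was high and the other arrays lay close together. The fractions were separated by a very small margin, with tetraploid replicate 3 at 6.1775 and diploid replicate 3 at 6.1792. The difference of -0.22 ± 0.13 (SE) was -0.08 without diploid replicate 1 and -0.29 without diploid replicate 3.

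Apaf1, the scaffold of the apoptosome, differed by 0.19 ± 0.09 (SE) and the death receptor Fas by 0.17 ± 0.10 (SE), with overlapping fractions in each. Ei24, a protein of the endoplasmic reticulum, differed by 0.04 ± 0.11 (SE). Aen, a nuclease of apoptotic cells, differed by -0.03 ± 0.12 (SE), while 1 of its dimmer probe sets separated the fractions with a difference of 0.25 ± 0.11 (SE). The dim members were the BH3-only gene Pmaip1, at 3.86 ± 0.24 in tetraploid and 3.77 ± 0.06 in diploid cells, and the death receptor gene Tnfrsf10b, at 4.64 ± 0.02 in tetraploid and 4.74 ± 0.11 in diploid cells (SD, n = 3 each).

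Of the 5 genes of repair and nucleotide supply, 2 had a higher and 3 a lower mean in tetraploid cells. Ddb2, which recognises ultraviolet damage for nucleotide excision repair, was at 7.46, 7.57 and 7.43 on the tetraploid arrays, against 7.76, 7.68 and 7.92 on the diploid arrays. All tetraploid values lay below all diploid values. Means were 7.49 ± 0.07 in tetraploid and 7.78 ± 0.12 in diploid cells (SD, n = 3 each), a difference of -0.30 ± 0.09 (SE) with a limma adjusted p = 0.625. Leaving out each array in turn kept it between -0.35 and -0.23. The second probe set for Ddb2 was at 6.92, 7.10 and 6.74 in tetraploid against 7.39, 7.28 and 7.42 in diploid cells, a difference of -0.45 ± 0.10 (SE). Both probe sets for Ddb2 are of kinds that can match several transcripts.

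Genes of DNA replication also had lower means in tetraploid cells, on a list chosen with earlier results of these data known. All 18 tested genes of this replication list had a lower mean in tetraploid cells, with a median difference of -0.79. All 18 were lower at an unadjusted limma p under 0.05, against 3.85% of all genes. In the reported fit, 0 of them had an adjusted p under 0.05. The mean deviation of that list was -0.24, -0.49 and -0.57 on tetraploid arrays 1 to 3, against 0.67, 0.26 and 0.37 on diploid arrays 1 to 3. Its part in the difference of Ddb2 was not tested.

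The other repair members did not separate the fractions. Rrm2b, the p53-inducible subunit of ribonucleotide reductase, was at 6.40, 6.70 and 6.70 in tetraploid cells, against 6.37, 6.27 and 6.53 in diploid cells, a difference of 0.21 ± 0.11 (SE). Polk, a DNA polymerase that copies past lesions, differed by 0.20 ± 0.09 (SE), and a dimmer probe set by 0.04. Xpc, which with Ddb2 opens nucleotide excision repair, differed by -0.06 ± 0.15 (SE), and Ercc5, the endonuclease XPG of the same pathway, by -0.02 ± 0.11 (SE).

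Across all 46 probe sets of the 27 measured genes, 8 lay higher in tetraploid cells without overlap, against 5.95% of all probe sets, and 4 lay lower, against 6.77%. An unadjusted limma p under 0.05 was reached by 7 in the higher direction, against 3.35% of all probe sets, and by 3 in the lower direction, against 3.55%. After adjustment 0 passed. Probe sets of 1 gene share their transcript and are not independent, and 3 of the 8 belong to Ccng1. For 5 of the 15 genes with over 1 probe set, Aen, Mdm4, Sesn1, Sesn2 and Tnfrsf10b, the probe sets differed in sign.

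The spread between arrays of the same fraction was wider for several p53 targets than for most genes. The SD within a fraction, pooled over both fractions, had a median of 0.15 over the 25 members and of 0.12 over all genes tested. It was above the 95th percentile of all genes, 0.30, for 4 members, Cdkn1a, Trp53inp1, Sesn1 and Bbc3, with Plk2 just under it. Zmat3 and Perp were at the narrow end, with pooled SDs of 0.07 and 0.06. For 15 of the 25 members, and for 68.0% of all genes, this SD exceeded the difference between the fractions. The tetraploid SD was the larger one for 11 members (44%), near the 48.9% of all genes.

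**Figure D3:**
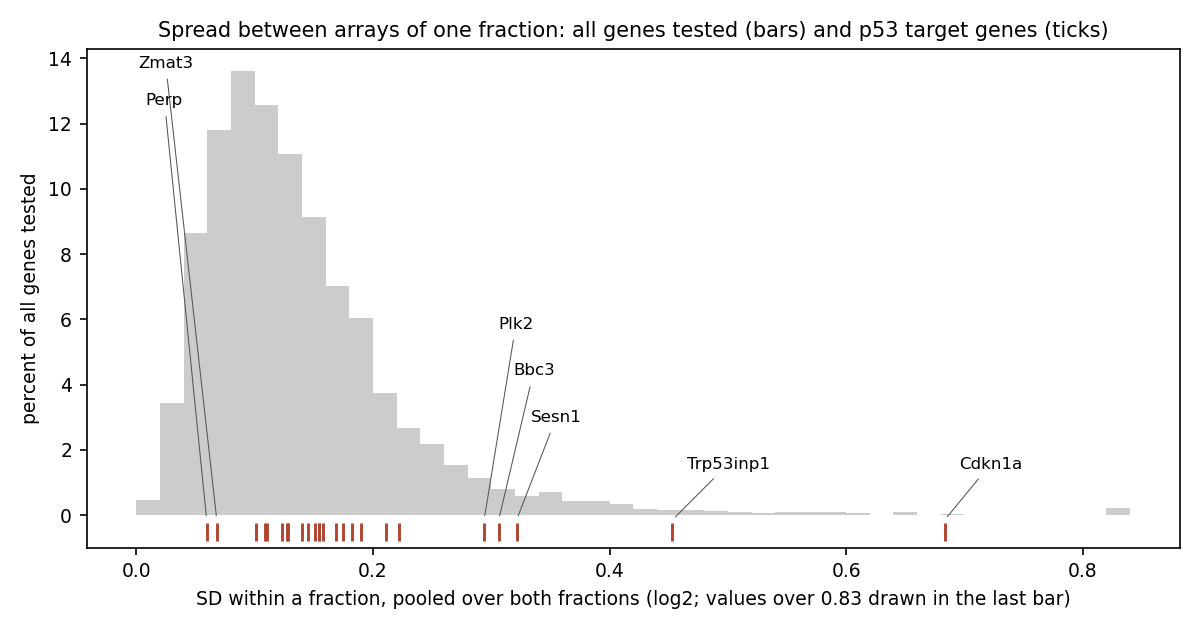
Bars give the percentage of the 9295 genes tested at each SD within a fraction, pooled over both fractions, on the log2 scale, and ticks below the axis are the 25 p53 targets. Most ticks lie among the bulk of genes, while Cdkn1a at 0.68 and Trp53inp1 at 0.45 lie far out in the tail.

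The arrays that were high or low for these members also differed in other gene groups. A list of 19 tested mitosis genes had mean deviations of -0.02, 0.32 and -0.30 on tetraploid arrays 1 to 3, against -0.01, -0.32 and 0.32 on diploid arrays 1 to 3. Its highest arrays were thus those with the highest Cdkn1a and Sesn1, and its median difference between the fractions was -0.04. A list of 11 stress genes of the ATF4 pathway, which holds Sesn2, was at -0.28, 0.22 and 0.03 on the tetraploid arrays, against -0.25, 0.02 and 0.26 on the diploid arrays. Replicate 1 of each fraction was low, as it was for Trp53inp1, but much of this came from Ddit4, which is on the list. Without Ddit4, left out after the values were seen, the list was at -0.10, 0.18 and -0.07 on the tetraploid arrays, against -0.08, -0.11 and 0.18 on the diploid arrays, and replicate 1 was no longer the lowest diploid array. Atf4 itself, the transcription factor of the pathway, and its target Ddit3 were highest on replicate 1 of each fraction. A list of 12 immediate-early genes, which respond within minutes to cell isolation, was at 0.21, 0.03 and -0.13 on the tetraploid arrays, against 0.16, -0.28 and 0.00 on the diploid arrays. The part of these groups in the spread of the p53 targets was not tested.

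**Figure D4:**
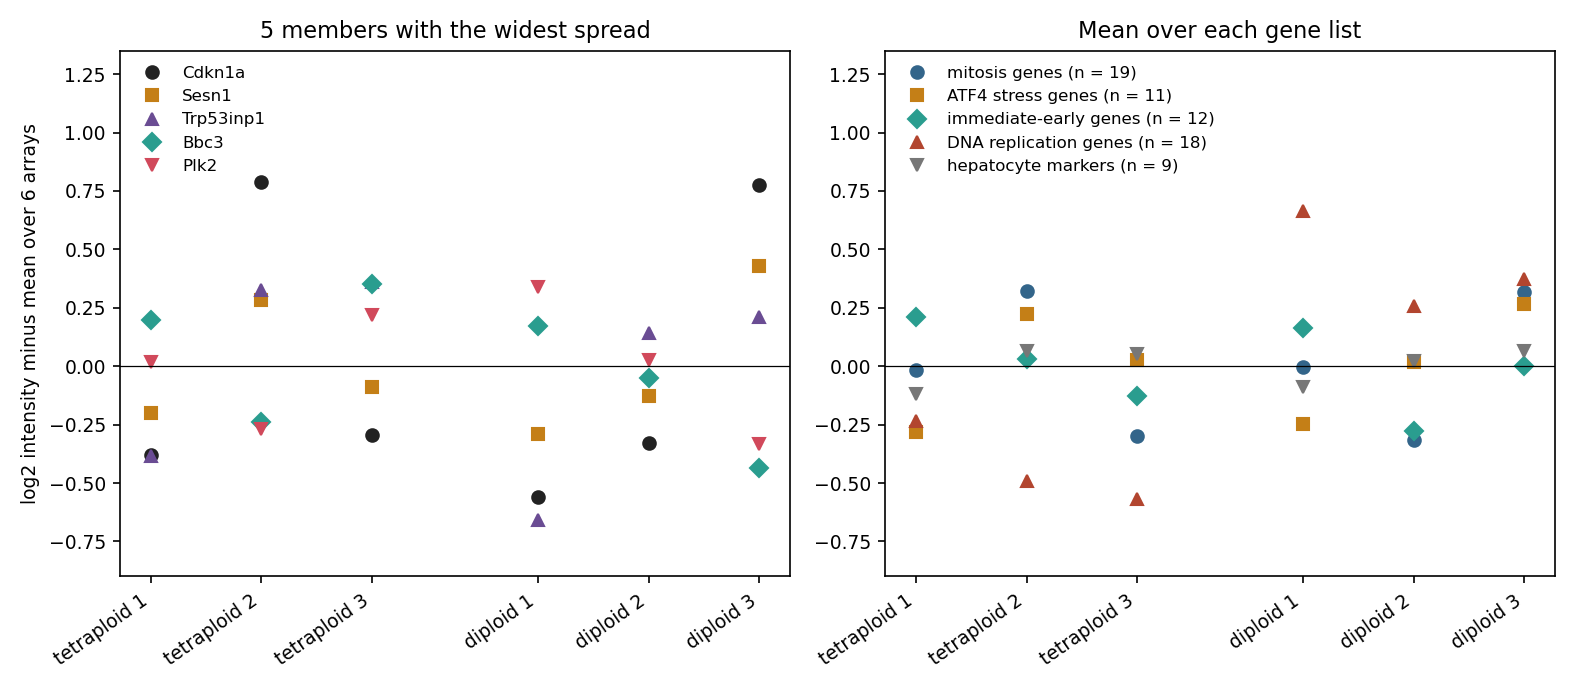
Points give the log2 intensity of the 5 members with the widest spread (left) and the mean over 5 gene lists (right), each minus its mean over the 6 arrays, with the tetraploid arrays before the diploid arrays. Cdkn1a and Sesn1 are highest on tetraploid replicate 2 and diploid replicate 3, where Bbc3 and Plk2 are lowest and the mitosis list is highest, while the replication list is below 0 on every tetraploid and above 0 on every diploid array. The points of Bbc3 and Trp53inp1 coincide on tetraploid replicate 3.

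Further genes of the pathway were taken from a list of 72 p53 kinases, cofactors and additional targets, of which 57 were measured and 49 tested. A higher mean in tetraploid cells was seen for 21 and a lower one for 28, with a median difference of -0.03. At an unadjusted limma p under 0.05, 4 were lower, against 3.85% of all genes, and 0 higher, against 2.32%, and 0 passed after adjustment over all genes. The 4 were Topbp1, an activator of the checkpoint kinase ATR, Chek1 and Chek2, kinases that phosphorylate p53, and Pcna, the sliding clamp of replication, which is also on the replication list. Without overlap between the fractions, 3 of the 49 were lower, against 7.08% of all genes, and 0 higher, against 5.22%. Topbp1 was at 8.66, 8.49 and 8.50 in tetraploid cells, against 9.30, 9.11 and 9.19 in diploid cells, a difference of -0.65 ± 0.08 (SE). Chek1 was at 7.49, 6.92 and 6.89 in tetraploid cells, against 8.42, 8.18 and 7.99 in diploid cells, a difference of -1.10 ± 0.18 (SE). Both were lower on every tetraploid array, and each had a limma adjusted p = 0.211. Chek2 was at 6.48, 6.82 and 6.36 in tetraploid cells, against 7.01, 6.74 and 6.90 in diploid cells. Tetraploid replicate 2 reached into the diploid range, and the difference was -0.33 ± 0.13 (SE). Pcna was at 11.67, 11.54 and 11.23 in tetraploid against 12.65, 12.01 and 12.30 in diploid cells, a difference of -0.84 ± 0.18 (SE). The next smallest p-values belonged to Prkdc, the kinase of DNA end joining, at -0.25 ± 0.13 (SE), and Siva1, an apoptosis gene, at -0.39 ± 0.22 (SE). The kinases Atm and Atr, which sense DNA damage upstream of p53, differed by -0.09 ± 0.08 and -0.04 ± 0.10 (SE), and the target Gadd45a by 0.41 ± 0.34 (SE), with overlapping fractions in all 3. These last 3 genes were chosen after their values were seen.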

How the data were processed

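Total RNA of sorted hepatocytes was labelled with biotin and hybridised to 6 Affymetrix arrays, per the labels' protocols. The deposited values are linear intensities, 1 for each probe set on each array. RMA is named in the submitters' processing notes. It corrects background, equalises arrays and summarises probes. Its version is not given in the sources used here, and no further filter was assumed. The log2 of each intensity was used. The 22690 probe sets included 64 controls, which were dropped, while 20380 carried 1 gene symbol, 691 several and 1555 none. The brightest probe set stood for a gene, and the dimmest 25% of 12393 genes were left out. Fractions were compared with limma 3.58.1 in R 4.3.3 (two-sided, ploidy as the only factor), with Benjamini-Hochberg adjustment over 9295 genes and 7.46 degrees of freedom. The code was run on simulated data with independent noise on each array. Deviations of some real arrays were correlated, so the simulation does not show how well differences are recovered here. The number of arrays limits precision, and the median SE of a difference was 0.095.

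Members and lists were chosen with earlier results of these data known, so no p-value over a list is given. Every member is named. Arrays are shown for members with an unadjusted p under 0.05, with separated fractions or with the 5 largest SDs, and for Mdm2, Mdm4 and Cdkn1a. Btg2 and Rrm2b were added after their values were seen. Of the pathway list, the 6 genes with the smallest p are named. Promoter windows came from RefSeq, build GRCm38.p6. Alternatives changed the dim filter, probe set, scaling, pseudocount, variance model, array weights, replicate block and each array in turn.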

Additional observations from a re-analysis of the deposited data

How the results depend on the processing

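In the limma fits, 0 members passed after adjustment over all genes under any of the 16 alternatives. Over all genes, 0 passed in each except the fit with the replicate block, with 9, and the fit without tetraploid replicate 1, with 1 (range 0 to 1 when 1 array was left out). Zmat3, Ccng1 and Ddb2 kept their direction and an unadjusted p under 0.05 in every alternative in which they were tested. For Zmat3 and Ddb2 the choice of probe sets without a suffix kept the probe set already used, so it tested nothing for them. Psrc1 had such a p in 7 of 15. The stricter filter, which tests fewer genes, left 16 members. Under it 2 members had an unadjusted p under 0.05, against 4 in the reported fit, and 369 genes, against 574. With 1 array left out, these counts ran from 3 to 5 members and from 380 to 641 genes, the lowest without diploid replicate 1. The median difference of the members ran from -0.02 to 0.09 and their median SD from 0.13 to 0.18. The sign of the difference changed in at least 1 alternative for 14 of the 25 members.

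The labels do not say that replicate numbers mark a shared animal or day. Deviations from the fraction means correlated at 0.57 between the arrays numbered 1, at -0.20 between those numbered 2 and at -0.20 between those numbered 3, so the numbers were not taken as a pairing. Only the arrays numbered 1 correlated best with their own number. Tetraploid replicate 2 correlated best with diploid replicate 3, at 0.69, and tetraploid replicate 3 with diploid replicate 2, at 0.38. Whether those arrays share an animal or day is not given by the labels, and the reported SEs treat all arrays as independent. Of the 9 genes that passed with the replicate block, Chek1 is on the pathway list and 5 are on the replication list, Cdc6, Mcm3, Mcm5, Mcm7 and Uhrf1. With the replicate block, 5 of the 25 members had an unadjusted limma p under 0.05, against 5.91% of all genes in that fit. The added member was Trp53inp1. This block joins arrays by number, and the arrays numbered 2 and 3 did not correlate with their own number. The blocked fit therefore cannot show what a shared animal or day would change.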

Other observations

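Ddit4, an inhibitor of the growth kinase mTORC1 and one of the additional p53 targets, had the widest SD within a fraction of all 9295 genes tested. It was singled out after its values were seen. Its log2 intensity was 6.74, 9.47 and 9.81 on tetraploid arrays 1 to 3, against 6.90, 10.11 and 9.90 on diploid arrays 1 to 3. Replicate 1 of each fraction was low, and the other 4 arrays lay between 9.47 and 10.11. The highest array exceeded the lowest by 8.39-fold among the tetraploid and by 9.26-fold among the diploid arrays. The difference between the fractions was -0.30 ± 1.04 (SE).

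Cebpb, a liver transcription factor on the ATF4 list, was also low on replicate 1, at 12.10, 13.04 and 12.72 in tetraploid cells and 11.96, 12.71 and 13.03 in diploid cells. Replicate 1 was the lowest array of each fraction for Ddit4, Cebpb and Trp53inp1, and also for the hepatocyte marker Tat. Cdkn1a differed from these genes, since tetraploid replicate 3 and diploid replicate 2 were low for it as well.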
